A study of Mus musculus with 9 samples.

Results

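Reads of immunoglobulin gene segments were examined in 9 RNA libraries of cells picked from the mouse retina as ganglion cells. The members were the rows of the count table named as immunoglobulin heavy, kappa or lambda segments with 10 or more counts summed over the 9 libraries. Of 50764 genes in the table, 393 carried such a name, 75 of these had at least 1 count, and 32 reached the minimum. Summed counts thus chose the members, in a set of libraries where high levels with Olig2 were already known. The row just inside the limit was Igkv15-101-1, with 10 counts, and those just outside were Ighv1-81 and Igkj4, with 9 counts each. The 32 members comprised 6 heavy constant genes, 7 heavy variable segments, Igkc, 11 kappa variable segments, 1 kappa joining segment, 3 lambda constant genes, 2 lambda variable segments and 1 lambda joining segment.

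The mice were adult, male and wild type, and every group had an optic nerve crush and an adeno-associated virus injected into the eye, with 14 days given in the labels for each. The Olig2 group received AAV-Olig2, the Olig3 group AAV-Olig3 and the control group AAV-GFP, with 3 libraries in each, by the sample labels. The title of the series instead writes AAV-Olig1/2, and the sample labels were followed. Both factors belong to the basic helix-loop-helix family of DNA-binding proteins. Cells were enriched on beads against CD90.2 (Thy1), a surface protein of ganglion cells that mouse T cells also carry. GFP-positive cells were then picked one at a time under a fluorescence microscope. A library pooled 10 to 15, 10 to 20 or 15 to 20 such cells, as 3 passages of the labels differ on this number. Which promoter drove the viral genes is not given here. How many mice the libraries of a group came from is not stated, so a p-value sets a difference against the spread of 3 picks, part of which may be technical. In pooled picks, fewer cells of a type and less RNA per cell cannot be told apart.

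Library totals ranged from 5355691 to 6979851 counts, so a gene at 0 could have held up to 3 counts, or 0.430 to 0.560 CPM (the usual scaling of counts by the library total). Rod genes were abundant in every library, and ganglion cell markers summed to 209 to 360 CPM with Olig2, 182 to 289 CPM with Olig3 and 762 to 1487 CPM with GFP, so the labelled cell type was read beside other retinal cells. Olig2 averaged 14.4 ± 9.82 CPM in Olig2 libraries, 0.628 ± 0.547 CPM in Olig3 libraries and 0 in each GFP library, and Olig3 averaged 47.1 ± 35.1 CPM in Olig3 libraries, 0.816 ± 0.707 CPM in Olig2 libraries and 2.43 ± 2.71 CPM in GFP libraries (SD, n = 3). Olig3 libraries 1 and 3, with 16188 and 14434 detected genes against 18184 to 21338 elsewhere, stood apart. The reads were amplified without molecular identifiers, so intervals cover counting error only.

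Antibodies are made by B lymphocytes and, in large amounts, by the plasma cells that descend from them. In each developing B cell a variable, a joining and, for heavy chains, a diversity segment are joined in the DNA, so that a cell and its descendants (a clone) use the same variable segment. The constant gene then fixes the isotype, and a cell can switch from Ighm to an IgG or IgA gene downstream. Light chains are kappa or lambda, and in mice kappa predominates. The healthy retina is largely free of B cells.

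The variable segments that led the heavy or kappa variable counts in the Olig2 libraries, and the leading heavy segment of Olig3 library 1, are given here as the last 300 bases of the germline coding sequence of the GENCODE M21 transcript on build GRCm38 (mm10), 5′ to 3′. Capitals mark the stretch from the codon of the last cysteine to the end of the segment, the part that the genome contributes to the junction with the next segment. Reads of rearranged genes carry further bases at that junction and may carry mutations, so these letters are the reference and not the transcripts of the picked cells. The gene models lie at chr6:68256389-68256869 (Igkv14-111, plus strand), chr12:114140692-114141122 (Ighv9-3, minus strand), chr6:68437440-68437925 (Igkv15-103, plus strand), chr12:114357759-114358218 (Ighv13-2, minus strand) and chr12:113796138-113796567 (Ighv2-6-8, minus strand).
Igkv14-111: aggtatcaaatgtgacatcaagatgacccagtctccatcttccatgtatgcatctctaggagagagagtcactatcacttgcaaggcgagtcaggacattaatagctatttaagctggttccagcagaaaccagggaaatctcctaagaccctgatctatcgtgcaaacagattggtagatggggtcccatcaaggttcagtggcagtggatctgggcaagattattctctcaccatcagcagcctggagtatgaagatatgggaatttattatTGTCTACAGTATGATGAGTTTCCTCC
Ighv9-3: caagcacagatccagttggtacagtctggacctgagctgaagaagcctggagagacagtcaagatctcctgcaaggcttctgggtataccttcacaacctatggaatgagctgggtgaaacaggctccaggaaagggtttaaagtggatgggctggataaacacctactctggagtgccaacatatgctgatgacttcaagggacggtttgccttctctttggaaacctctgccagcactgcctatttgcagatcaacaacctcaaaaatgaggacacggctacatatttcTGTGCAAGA
Igkv15-103: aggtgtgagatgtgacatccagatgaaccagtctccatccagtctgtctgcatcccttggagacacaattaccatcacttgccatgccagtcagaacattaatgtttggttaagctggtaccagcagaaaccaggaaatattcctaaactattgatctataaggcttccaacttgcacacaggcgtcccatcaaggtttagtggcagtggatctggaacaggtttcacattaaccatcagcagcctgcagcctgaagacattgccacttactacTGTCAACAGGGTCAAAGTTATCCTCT
Ighv13-2: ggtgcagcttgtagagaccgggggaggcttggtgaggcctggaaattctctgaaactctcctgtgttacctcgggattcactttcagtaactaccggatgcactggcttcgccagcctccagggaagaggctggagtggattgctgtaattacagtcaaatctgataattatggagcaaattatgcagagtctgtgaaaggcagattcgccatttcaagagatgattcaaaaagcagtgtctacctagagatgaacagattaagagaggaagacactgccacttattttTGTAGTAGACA
Ighv2-6-8: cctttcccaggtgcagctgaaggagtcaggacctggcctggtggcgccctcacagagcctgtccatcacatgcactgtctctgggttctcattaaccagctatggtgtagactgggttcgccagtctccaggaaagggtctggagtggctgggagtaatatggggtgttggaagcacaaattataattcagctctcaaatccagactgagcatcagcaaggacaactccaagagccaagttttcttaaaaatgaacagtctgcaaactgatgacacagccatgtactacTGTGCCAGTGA
Igkv14-111 and Igkv15-103 were identical at 70.9% of 354 aligned positions, and Ighv9-3 and Ighv13-2 at 58.1% of 365. The 2 segments of each pair led in different libraries. No 50-base window of Igkv14-111, Igkv15-103 or Ighv13-2 occurred in another immunoglobulin transcript of the annotation, whereas 70 of 302 windows of Ighv9-3 (23.2%) did, 47 of them in Ighv9-1. For Ighv2-6-8, 109 of 344 windows (31.7%) did.

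All 3 Olig2 libraries held far more immunoglobulin reads than the other 6. The 32 members had 167609, 22297 and 51934 counts in Olig2 libraries 1, 2 and 3, against 286, 61 and 0 counts in Olig3 libraries 1, 2 and 3 and 163, 644 and 101 counts in GFP libraries 1, 2 and 3. These counts were 2.61% (95% Wilson interval 2.60 to 2.62), 0.411% (0.405 to 0.416) and 0.767% (0.760 to 0.773) of all counts in the Olig2 libraries, against 0 to 0.00444% in the Olig3 libraries and 0.00160 to 0.00923% in the GFP libraries. The lowest Olig2 library lay above the highest GFP and Olig3 libraries, and the Olig2 libraries differed among themselves: 1.26% ± 1.18 (SD, n = 3). Olig3 library 3 had no count in any member, which allows a share of up to 0.508 CPM per member at 3 counts. By pooled CPM, 23 members were highest with Olig2, 4 with Olig3 and 5 with GFP. Of the 32, 12 were read only in Olig2 libraries, 2 only in Olig3 libraries and 3 only in GFP libraries, and no member was read in all 9. The rule on summed counts favours rows read in the Olig2 libraries, which held 241840 of the 243095 member counts. These numbers of members are therefore a description, and the same shares over all genes were not computed.

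**Figure D1:**
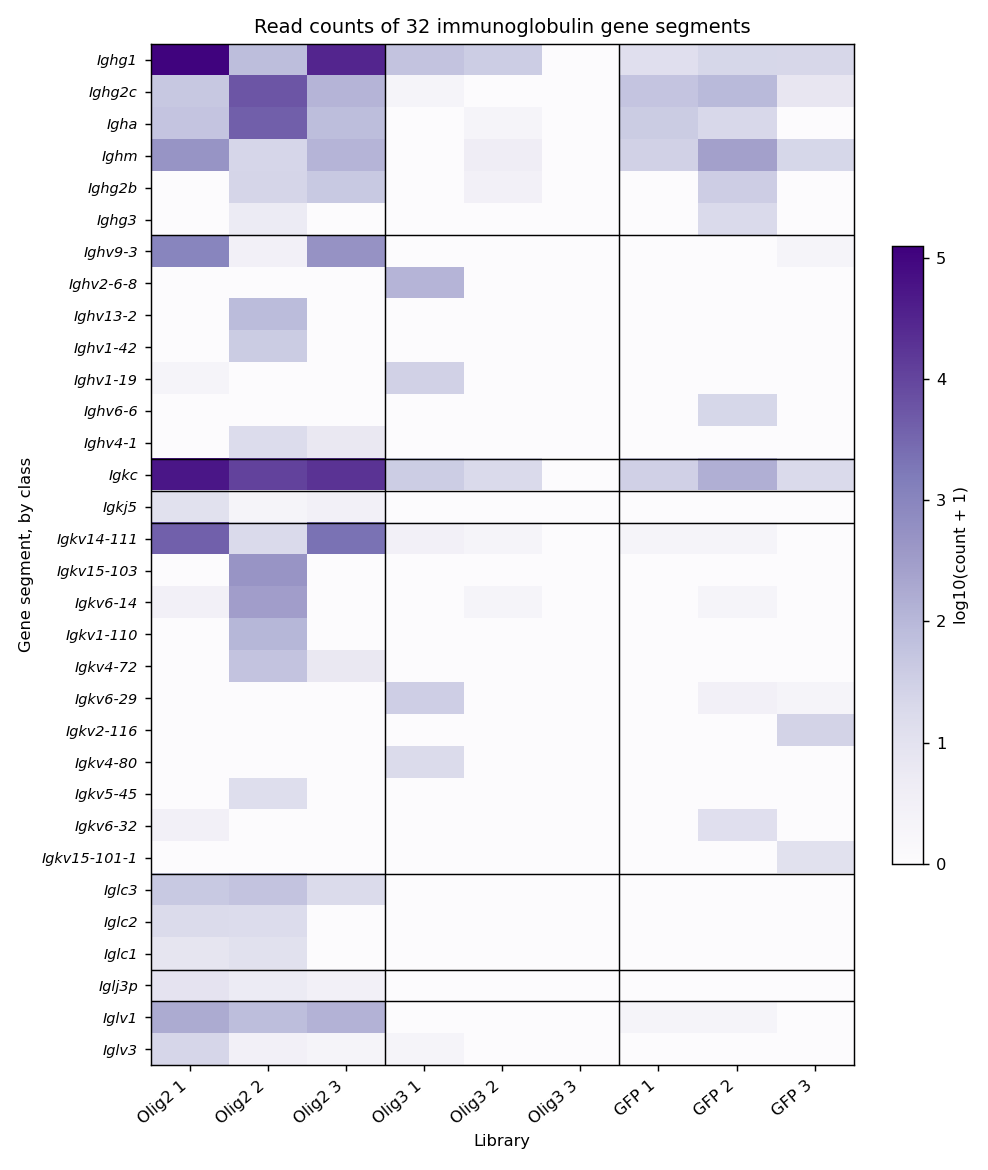
Heat map of log10(count + 1) for the 32 immunoglobulin gene segments (rows, grouped by class, horizontal lines between classes) in the 9 libraries (columns, vertical lines between groups). Igkc is dark in all 3 Olig2 libraries, Ighg1 in Olig2 libraries 1 and 3, and Ighg2c and Igha in Olig2 library 2, while the column of Olig3 library 3 is empty.

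The heavy constant genes, which set the isotype, differed between Olig2 libraries. Ighg1, the constant region of IgG1 (chr12:113325240-113330523, minus strand), had 108645, 76 and 29557 counts in Olig2 libraries 1, 2 and 3, against 57, 36 and 0 in the Olig3 libraries and 11, 21 and 20 in the GFP libraries. Olig2 libraries 1 and 3 were high and Olig2 library 2 lay near the highest Olig3 library, although its value still exceeded all of the others. The share of each isotype within a library separated library 2 from the others. Ighg1 made up 99.5% (99.4 to 99.5) of the heavy constant counts of Olig2 library 1 and 98.9% (98.7 to 99.0) of those of library 3, but 0.762% (0.609 to 0.952) of those of library 2. Ighg2c, which some laboratory strains carry for IgG2c in place of IgG2a, had 46, 5751 and 112 counts in the Olig2 libraries, against 1, 0 and 0 with Olig3 and 55, 92 and 6 with GFP. Igha, the constant region of IgA, the isotype of secretions, had 55, 4104 and 74 counts in the Olig2 libraries, against 0, 1 and 0 with Olig3 and 38, 19 and 0 with GFP. Both genes were high in Olig2 library 2 alone, where Ighg2c took 57.6% (56.7 to 58.6) and Igha 41.1% (40.2 to 42.1) of the heavy constant counts. Scaled to exonic length, the shares in that library were 73.2% for Ighg2c and 26% for Igha. For Ighg2c, Olig2 library 1 lay below GFP libraries 1 and 2, so the groups overlapped.

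Ighm, the constant region of IgM, which B cells make before switching, had 480, 22 and 113 counts in the Olig2 libraries, against 0, 3 and 0 with Olig3 and 28, 280 and 21 with GFP. Its range with Olig2 enclosed GFP libraries 1 and 2. GFP library 2 was the GFP library with the most member counts, and Ighm made up 60.5% (56.0 to 64.8) of its 463 heavy constant counts. Ighg2b, of the IgG2b isotype, had 0, 23 and 43 counts with Olig2, against 0, 2 and 0 with Olig3 and 0, 34 and 0 with GFP. Ighg3, of the IgG3 isotype, had 0, 4 and 0 counts with Olig2, 0 in each Olig3 library and 0, 17 and 0 with GFP, and was the constant gene whose highest library was a GFP library. All 6 heavy constant genes were read in Olig2 library 2 and GFP library 2, while Olig2 library 1 had no count of Ighg2b or Ighg3. Of the remaining heavy constant genes named in the table, Ighd, of IgD, had 1 count, in GFP library 1, and fell under the minimum. The few heavy constant counts of Olig3 libraries 1 and 2 were mainly Ighg1, at 57 of 58 and 36 of 42 counts, whereas in the GFP libraries Ighg1 gave 11 of 132, 21 of 463 and 20 of 47.

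**Figure D2:**
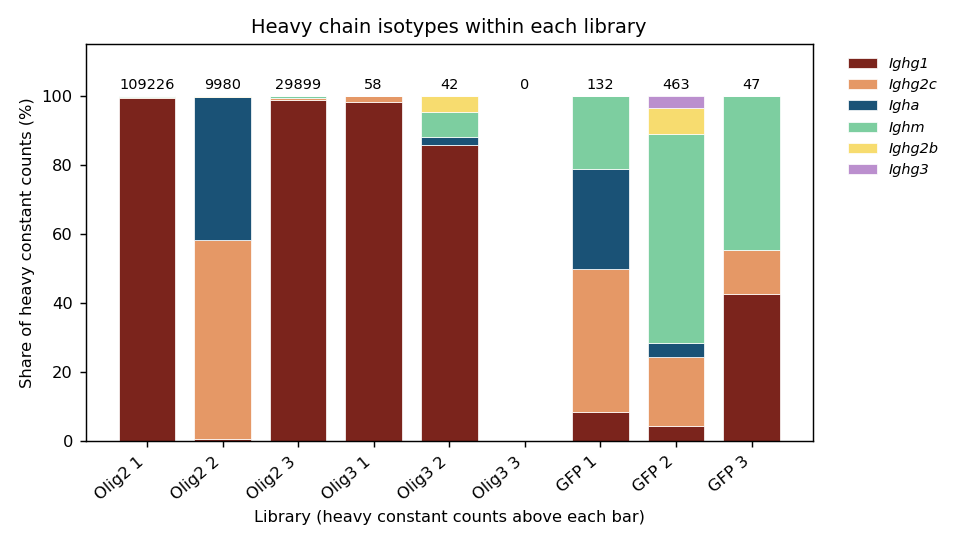
Stacked bars of the share of heavy constant counts (%) taken by each of 6 heavy constant genes in the 9 libraries, with the heavy constant counts of the library above its bar. Ighg1 fills 99.5 and 98.9% of the bars of Olig2 libraries 1 and 3, Ighg2c and Igha fill that of Olig2 library 2, and Olig3 library 3 has no bar because it had 0 counts.

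Igkc, the single constant gene of kappa light chains (chr6:70726435-70726966, plus strand), was high in every Olig2 library. It had 53094, 11061 and 19167 counts in Olig2 libraries 1, 2 and 3, against 35, 17 and 0 with Olig3 and 29, 144 and 17 with GFP. Kappa took 99.9, 99.3 and 99.9% of the light chain constant counts in Olig2 libraries 1, 2 and 3. No lambda constant count was found in an Olig3 or GFP library, where the Igkc counts of 17 to 144 leave a lower 95% Wilson limit of 81.6 to 97.4% for the kappa share, Olig3 library 3 being without counts. The lambda constant gene Iglc3 had 43, 58 and 16 counts in the Olig2 libraries and 0 in each Olig3 and GFP library. Iglc2 had 16, 15 and 0 counts and Iglc1 had 7, 10 and 0 counts in the Olig2 libraries, again with 0 elsewhere. Iglc3 and Iglc2 share 43 of their 50-base windows, 10.7% of those of Iglc3 and 7.65% of those of Iglc2, so the split between them is uncertain. Of the 405 windows of Iglc1, 0 were found in another immunoglobulin transcript. Iglv1, a lambda variable segment, had 173, 76 and 128 counts in the Olig2 libraries, against 0 in each Olig3 library and 1, 1 and 0 with GFP, and shares 22.2% of its 50-base windows with Iglv2. Iglv3 had 22, 2 and 1 counts with Olig2, against 1, 0 and 0 with Olig3 and 0 in each GFP library. The joining segments Igkj5, with 10, 1 and 2 counts, and Iglj3p, with 8, 4 and 2 counts, were also read in the 3 Olig2 libraries and at 0 in the other 6. Every light chain constant and joining member was thus highest in an Olig2 library. Counted on variable segments, kappa took 95.4, 92.4 and 94.4% in the Olig2 libraries, lower than on constant genes in each of them. The gene models of Iglc1, Iglc3, Iglj3p and Iglv1 overlap 2010309G21Rik, which itself had 36, 104 and 24 counts with Olig2 and 0 in each Olig3 and GFP library. Reads of these overlapping models are not separable here. Igkc and Igkj5 overlap Gm30211 in the same way, which had 9, 1 and 4 counts with Olig2, 0, 1 and 0 with Olig3 and 0 in each GFP library.

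In Olig2 libraries 1 and 3 a single heavy and a single kappa segment held nearly all of the variable counts, and they were the same segments in both. Igkv14-111 had 4032, 17 and 2187 counts in Olig2 libraries 1, 2 and 3, against 2, 1 and 0 with Olig3 and 1, 1 and 0 with GFP. It made up 99.9% (99.75 to 99.96) of the kappa variable counts of library 1 and 99.8% (99.5 to 99.9) of those of library 3. Ighv9-3 had 973, 2 and 522 counts in Olig2 libraries 1, 2 and 3, 0 in each Olig3 library, and 0, 0 and 1 with GFP. Its share of the heavy variable counts was 99.9% (99.4 to 99.98) in library 1 and 99.1% (97.8 to 99.6) in library 3. Both segments were thus high in 2 of 3 Olig2 libraries, with library 2 lying near the other groups. Ighv9-3 stood to Igkv14-111 at a count ratio of 0.241 (95% exact interval 0.225 to 0.259) in library 1 and 0.239 (0.217 to 0.263) in library 3, so the pair kept the same ratio within counting error. The ratio of Ighg1 to Igkc was 2.05 (2.02 to 2.07) in library 1 and 1.54 (1.51 to 1.57) in library 3, and that of Igkv14-111 to Igkc 0.0759 (0.0735 to 0.0784) and 0.114 (0.109 to 0.119), which differed by more than counting error. The inverse Simpson index, the number of equally read segments that would give the same concentration, was 1.002 for both chains in library 1 and 1.019 (heavy) and 1.005 (kappa) in library 3.

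Olig2 library 2 used other segments, and more of them. Igkv15-103 had 465 counts there and 0 in the other 8 libraries, and it led the kappa variable counts at 48.8% (45.7 to 52.0). Igkv6-14 followed with 297 counts, against 2 and 0 in Olig2 libraries 1 and 3, 0, 1 and 0 with Olig3 and 0, 1 and 0 with GFP. The remaining kappa counts of this library came from smaller contributions. Igkv1-110 had 104 counts and Igkv5-45 had 13 counts in Olig2 library 2, both with 0 in the 8 other libraries. Igkv4-72 had 56 counts in Olig2 library 2 and 5 in library 3, and 0 elsewhere. The heavy side was likewise split. Ighv13-2 had 84 counts, or 60.9% (52.5 to 68.6) of the heavy variable counts of the library, and Ighv1-42 had 37, both read in no other library. Ighv4-1 had 15 counts in Olig2 library 2 and 5 in library 3, and 0 elsewhere. The inverse Simpson index was 2.20 for heavy and 2.84 for kappa segments, above the values of the other Olig2 libraries. Igkv6-14 shares 30.2% and Igkv1-110 50.9% of their 50-base windows with other immunoglobulin transcripts, so counts of these segments may be split with their relatives.

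**Figure D3:**
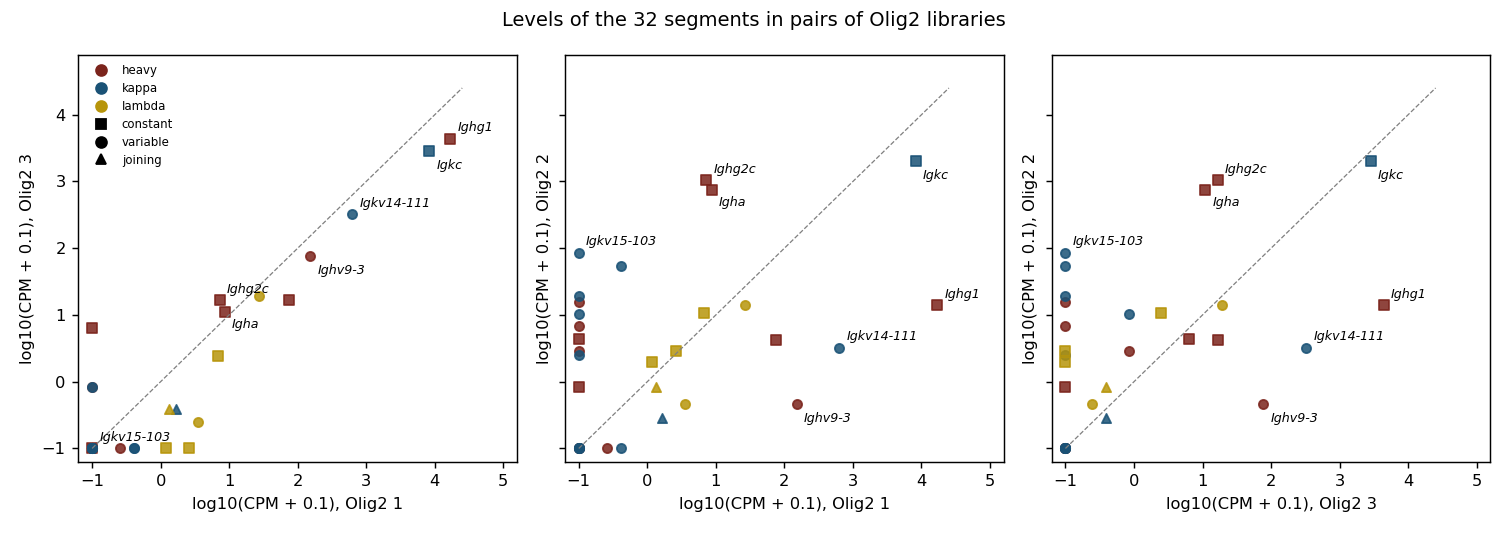
Levels of the 32 segments, as log10(CPM + 0.1), in pairs of Olig2 libraries: library 3 against 1, library 2 against 1 and library 2 against 3 (colours give the chain, shapes the class, dashed lines equality). In the first panel Ighg1, Igkc, Igkv14-111 and Ighv9-3 lie a little below the diagonal, and in the other panels Ighg1, Igkv14-111 and Ighv9-3 fall below it and Ighg2c, Igha and Igkv15-103 above it.

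The Olig3 and GFP libraries held few variable reads, and these came mostly from still other segments. In Olig3 library 1, Ighv2-6-8 had 114 counts and Ighv1-19 had 28, with 0 and 1 count in all other libraries together. Kappa segments there were Igkv6-29, with 32 counts, and Igkv4-80, with 16 counts, against 3 and 0 counts in the other libraries. Other immunoglobulin transcripts share 31.7% of the 50-base windows of Ighv2-6-8, 22.2% of Ighv1-19, 56.0% of Igkv6-29 and 22.4% of Igkv4-80. Counts of these segments may thus be split with their relatives. This library had 142 heavy variable counts beside 58 heavy constant counts, the reverse of the Olig2 libraries, where heavy variable reads were 0.581 to 1.015% of all member counts and heavy constant reads 44.8 to 65.2%. In GFP library 2, Ighv6-6 had 21 counts and Igkv6-32 had 11. In GFP library 3, Igkv2-116 had 25 counts and Igkv15-101-1 had 10, both annotated as pseudogenes and read in no other library. GFP library 1 and Olig3 library 2 had at most 1 count in any variable member, and Olig3 library 3 had 0.

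Sharing of segments was counted over variable members with 3 or more counts. Olig2 libraries 1 and 3 shared 3 segments (Ighv9-3, Igkv14-111 and Iglv1), which were 75% of the 4 in library 1 and 60% of the 5 in library 3. Olig2 libraries 2 and 3 shared 4 (Ighv4-1, Igkv14-111, Igkv4-72 and Iglv1), or 40% of the 10 in library 2 and 80% of the 5 in library 3. In libraries 2 and 3 these had 15 and 5, 17 and 2187, 56 and 5, and 76 and 128 counts, in that order. The percentages count segments and not reads, so a segment with 5 counts weighs as much as a leading one. Olig2 libraries 1 and 2 shared Igkv14-111 and Iglv1, or 50% of the 4 in library 1 and 20% of the 10 in library 2. No variable member with 3 or more counts was shared between an Olig2 library and a library of another group, or between the other libraries. Olig3 libraries 2 and 3 and GFP library 1 had no such segment, so sharing with them could not be seen. Olig3 library 1 had 4 such segments, and GFP libraries 2 and 3 had 2 each. Under 3 counts, Igkv14-111 was also read in Olig3 libraries 1 and 2 and GFP libraries 1 and 2, with 2, 1, 1 and 1 counts. Under the minimum of 10 summed counts, Ighv5-6 had 3 counts in Olig2 library 2 and 5 in GFP library 1. Over the 15600 tested genes that are not members, log2 CPM of Olig2 libraries 1 and 3 had a correlation across genes of 0.882, with 0.872 for libraries 1 and 2 and 0.927 for libraries 2 and 3. Genes are not independent replicates, and the pair with the same leading segments was not the pair with the highest correlation. No pair of libraries of a group had counts that agreed within sampling noise (29.5 to 112.8 chi-square units per degree of freedom, 53.8 for Olig2 libraries 1 and 3), which after amplification does not show that libraries came from separate samples. Whether these libraries share cells, an animal or a preparation was not tested.

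By annotation the members lay on 3 chromosomes: 13 at the heavy locus of chromosome 12, 13 at the kappa locus of chromosome 6 and 6 at the lambda locus of chromosome 16. The annotation classes 10 of them as constant, 2 as joining and 18 as variable genes, and 2 as variable pseudogenes. The pseudogenes held 35 of 243095 member counts, all in GFP library 3. Constant genes were read across libraries, with 6 of 10 found in 4 or more, whereas 10 of 20 variable segments were found in 1 library only. The 7 heavy variable segments came from 6 families and the 11 kappa segments from 7. Igkv14-111 starts at -2.47 Mb relative to the start of Igkc, and Igkv6-14 (chr6:70434952-70435476) at -0.2915 Mb. Of the kappa segments, 5 lie on the strand of Igkc and 6 on the opposite strand, where joining inverts the DNA between. Ighv9-3 starts 0.722 Mb from Ighm, in a range of 0.378 to 1.52 Mb spanned by the heavy segments.

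**Figure D4:**
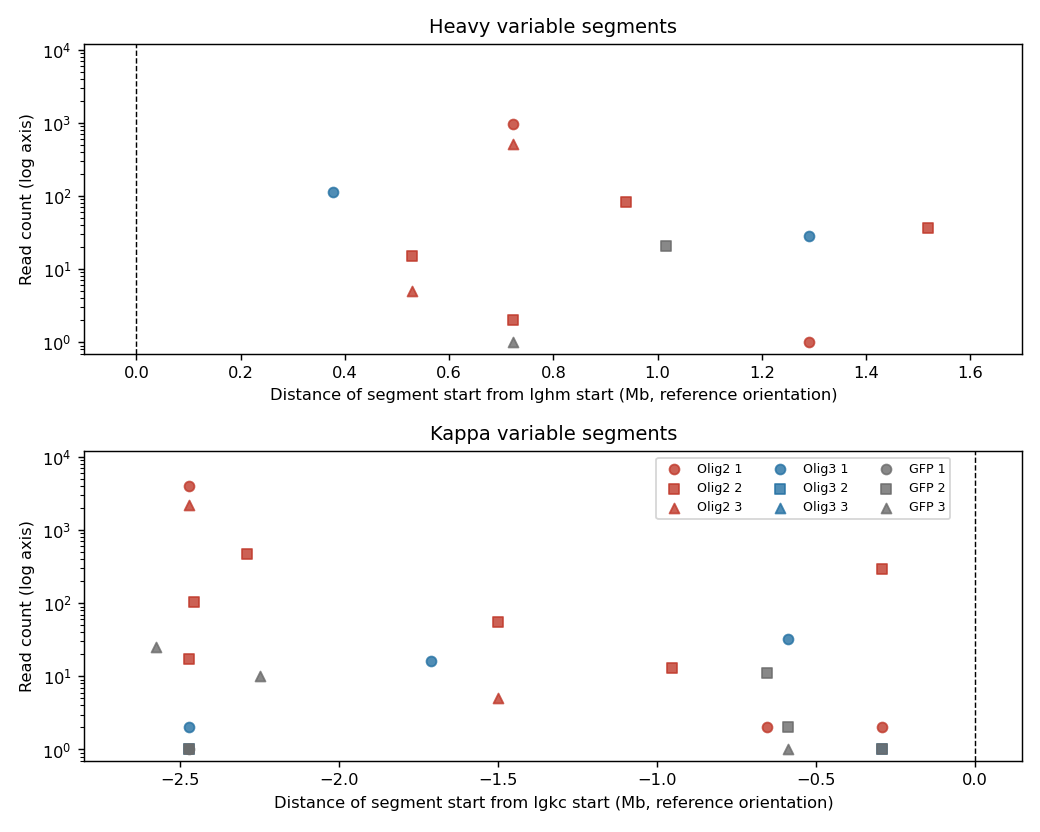
Read counts (log axis) of the heavy and kappa variable segments against their distance in Mb from the start of Ighm (top) and Igkc (bottom), with 1 symbol per library and segment with at least 1 count. Segments read in the Olig2 libraries spread over both loci, and the highest symbols, at -2.47 Mb in the lower panel, are Igkv14-111 in Olig2 libraries 1 and 3.

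The comparison of Olig2 with GFP asked how RNA levels differ in cells from eyes given the factor. Differences were tested over 15609 genes with the edgeR quasi-likelihood test and Benjamini-Hochberg adjustment over all of them. Only 9 of the 32 members passed the filter on low counts: Ighg1, Igkc, Igkv14-111, Ighg2c, Igha, Ighm, Iglv1, Iglc3 and Ighg2b. A segment read in 3 libraries of 1 group passes this filter through that group alone, and high levels with Olig2 were known when the members were chosen, so the number called is a description. Of the 9, Igkc and Igkv14-111 were called higher with Olig2, where 0.0384% of all genes were called higher, and 0 were lower, where the share of all genes was 0.0128%. At unadjusted edgeR p under 0.05, 7 were higher, against 2.61% of all genes, and 0 lower, against 2.08%. DESeq2 tested 10 members, which included Ighv9-3 but not Ighg2c and Igha, the genes high in Olig2 library 2 alone. It called 6 higher and 0 lower, against 0.341% of all genes in each direction. The numbers of edgeR and DESeq2 are thus not over the same members. Levels of the 2 groups did not overlap, with Olig2 higher, for 6 of the 9, against 8.47% of all genes, and with Olig2 lower for 0, against 8.35%. Igkc rose with Olig2 by 9.09 on the log2 scale (SE 1.10, edgeR adjusted p = 0.0127), and Igkv14-111 by 11.51 (SE 1.71, edgeR adjusted p = 0.0456). Ighg1 averaged 6941 ± 7870 CPM with Olig2 and 2.33 ± 0.592 CPM with GFP (SD, n = 3 each, scaled by TMM factors) and did not pass, with a log2 change of 11.52 (SE 2.06, edgeR adjusted p = 0.134). Iglv1, at 21.9 ± 3.40 CPM with Olig2 and 0.0922 ± 0.0806 CPM with GFP, had a small spread but did not pass either (log2 change 7.62, SE 1.30, edgeR adjusted p = 0.158). Ighg2c and Igha, high in 1 Olig2 library, had log2 changes of 6.07 and 6.96 with edgeR adjusted p of 0.525 and 0.450. Ighm averaged 31.3 ± 33.0 CPM with Olig2 and 14.2 ± 18.5 CPM with GFP (log2 change 1.14, SE 1.20, edgeR adjusted p = 1), and its change was -0.18 without Olig2 library 1 and 3.16 without GFP library 2. Calls depended on single libraries: the number was 0 without Olig2 library 1, GFP library 1 or GFP library 3, 1 (Igkc) without Olig2 library 3, GFP library 2 or Olig3 library 1 or 2, and 4 without Olig2 library 2 or Olig3 library 3.

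Set against the Olig2 libraries, those with Olig3 had little Igkc. In the test of Olig3 against Olig2, Igkc averaged 3.14 ± 2.75 CPM with Olig3 and 4550.4 ± 2650.1 CPM with Olig2 (n = 3 each) and fell by 10.53 on the log2 scale (SE 1.19, edgeR adjusted p = 0.0133). It was the only one of the 9 tested members called, where 0.0384% of all genes were called lower and 0.00% higher. At unadjusted edgeR p under 0.05, 8 were lower, against 3.05% of all genes, and 0 higher, against 2.07%. DESeq2, again without Ighg2c and Igha, called 7 of 10 members lower, against 0.530% of all genes, and 0 higher, against 0.0883%. The Olig3 libraries lay wholly below the Olig2 libraries for 8 of the 9, against 8.69% of all genes, and wholly above them for 0, against 4.41%. A segment can pass the filter through the Olig2 libraries alone, where high levels were already known, so the numbers in this comparison are a description. Igkv14-111 had a log2 difference of -10.73 (SE 1.65, edgeR adjusted p = 0.0732) and Ighg1 of -10.26 (SE 1.96, edgeR adjusted p = 0.219). The call of Igkc held without any single library and was lost without Olig3 libraries 1 and 3 together (log2 difference -10.05, edgeR adjusted p = 0.121), a fit in which the single Olig3 library takes its spread from the other groups. In pooled counts Ighv9-3, which the filter left untested, had 0 counts with Olig3 and 1497 with Olig2 and was at least 474-fold lower with Olig3, taking 3 counts for the whole Olig3 group. Igkv15-103, with 0 and 465 counts, was at least 147-fold lower on the same basis, though all of its counts came from 1 library.

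Between Olig3 and GFP, 0 of the 9 tested members passed by edgeR, with 0.0961% of all genes called higher and 0.109% lower. Some of the 9 were hardly read in either group. Iglc3 had 0 counts in both, Iglv1 had 0 with Olig3 and 2 with GFP, and Igkv14-111 had 3 and 2. The test could show no difference for these genes, so the number called is a description. Unadjusted, 2 of the 9 had an edgeR p under 0.05 and were lower, against 6.37% of all genes, and 0 were higher, against 5.76%. DESeq2, again without Ighg2c and Igha, called 1 of 10 members, Ighm, lower, against 2.29% of all genes, and 0 higher, against 1.58%. Ighm averaged 0.250 ± 0.433 CPM with Olig3 and 14.2 ± 18.5 CPM with GFP (log2 difference -6.04, SE 1.62, edgeR adjusted p = 0.184). Ighg2c averaged 0.0492 ± 0.0851 CPM with Olig3 and 6.90 ± 5.56 CPM with GFP (log2 difference -6.50, SE 2.84, edgeR adjusted p = 0.383). For these 2 genes the Olig3 libraries lay wholly below the GFP libraries, against 10.0% of all genes, and they lay wholly above for 0, against 7.18%. Igkc had a log2 difference of -1.45 (SE 0.930, edgeR adjusted p = 0.577), which was -0.10 without GFP library 2, and Ighg1 of 1.26 (SE 1.62, edgeR adjusted p = 0.798), with overlapping libraries for both. The comparisons with GFP share the GFP libraries.

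Other lymphoid genes were read in the same libraries. B cell markers summed to 11.97 to 22.4 CPM with Olig2, against 0 to 0.311 CPM with Olig3 and 0 to 2.22 CPM with GFP, with 9, 2 and 2 of the 10 genes read. Cd79a, a signalling chain of the B cell receptor, had 70, 36 and 73 counts in the Olig2 libraries and 0 in each Olig3 and GFP library. Ms4a1 (CD20), a surface protein of B cells that plasma cells lose, had 34, 0 and 11 counts with Olig2, 0 in each Olig3 library and 0, 0 and 1 with GFP. The B cell transcription factor Pax5 was at 0 in all libraries. Plasma cell markers summed to 272 to 662 CPM with Olig2, against 134 to 384 CPM with Olig3 and 185 to 269 CPM with GFP, with 11, 9 and 10 of 12 genes read. The sums of Olig3 library 1 and of the Olig2 libraries overlapped. Xbp1, Prdm1 and Txndc5, which many other cells use, were read in all 9 libraries. Prdm1 had 10, 40 and 80 counts with Olig2, against 424, 31 and 127 with Olig3 and 67, 34 and 55 with GFP. Irf4 had 3, 11 and 0 counts with Olig2, 0 in each Olig3 library and 18, 3 and 1 with GFP. Eaf2 had 7, 4 and 12 counts with Olig2, 1, 8 and 0 with Olig3 and 22, 34 and 9 with GFP. Pou2af1 had 27, 10 and 27 counts with Olig2 and 0 in each Olig3 and GFP library. Mzb1, a chaperone of antibody assembly, had 360, 106 and 81 counts with Olig2, against 0, 1 and 0 with Olig3 and 0, 1 and 0 with GFP (edgeR adjusted p = 0.0691 for Olig2 against GFP). Jchain, which joins IgM and IgA subunits, had 1998, 913 and 738 counts with Olig2, against 274, 117 and 198 with Olig3 and 47, 186 and 98 with GFP, and rose with Olig2 against GFP by 3.85 on the log2 scale (SE 0.449, edgeR adjusted p = 0.0127). The defining plasma cell markers were Mzb1, Prdm1, Sdc1 and Tnfrsf17. Of these, Tnfrsf17 was at 0 in all libraries. Sdc1 had 1, 1 and 0 counts with Olig2, against 0, 1 and 0 with Olig3 and 18, 7 and 0 with GFP.

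T cell markers lay at 16.9 to 104 CPM with Olig2, 0 to 0.311 CPM with Olig3 and 0 to 26.1 CPM with GFP, with 8, 2 and 7 of 8 genes read. Cd3e, a chain of the T cell receptor complex, had 34, 12 and 22 counts with Olig2, 0 in each Olig3 library and 0, 7 and 9 with GFP. Il7r was also higher in every Olig2 library, with 229, 12 and 49 counts against 0, 1 and 1 with GFP. Counts of Cd3d, Cd3g, Cd4, Trac and Trbc2 overlapped between the Olig2 and GFP libraries. For Cd3g they were 130, 19 and 61 with Olig2 and 0, 39 and 47 with GFP. Cd8a had 1 count, in Olig2 library 3. Markers of granulocytes were low in every group, at 0 to 4.43 CPM with Olig2, 0 to 0.373 CPM with Olig3 and 0 to 16.1 CPM with GFP, with 3, 2 and 4 of 8 genes read. Microglia and macrophage markers overlapped, at 18.7 to 142 CPM with Olig2, 64.0 to 152 CPM with Olig3 and 30.6 to 139 CPM with GFP. Red blood cell genes lay at 0.156 to 85.6 CPM with Olig2, 3.38 to 36.2 CPM with Olig3 and 3.87 to 10.4 CPM with GFP, and the library richest in immunoglobulin reads, Olig2 library 1, was the lowest in them. Of the secretory epithelium list, at 93.1 to 365 CPM with Olig2, 90.2 to 128 CPM with Olig3 and 124 to 168 CPM with GFP, Krt8 and Lpo were at 0 in all libraries. Slpi of that list, a protease inhibitor of secretions that myeloid cells also make, was high in Olig2 libraries 1 and 2, with 1698, 784 and 36 counts with Olig2, against 0, 1 and 0 with Olig3 and 0, 2 and 0 with GFP. It gave most of the list's 2346 and 1144 counts in Olig2 libraries 1 and 2. Aqp5 of the list was lower with Olig2 than with GFP, at 4, 12 and 24 against 47, 56 and 119 counts, and had 0, 2 and 0 with Olig3. Krt18 did not rise with Olig2 either, with 644, 345 and 564 counts, against 661, 480 and 757 with Olig3 and 677, 949 and 940 with GFP. Rod markers held 70145 to 122746 CPM with Olig2, 51655 to 130932 CPM with Olig3 and 40942 to 61900 CPM with GFP. The part of any of these cell types in the immunoglobulin reads was not tested.

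**Figure D5:**
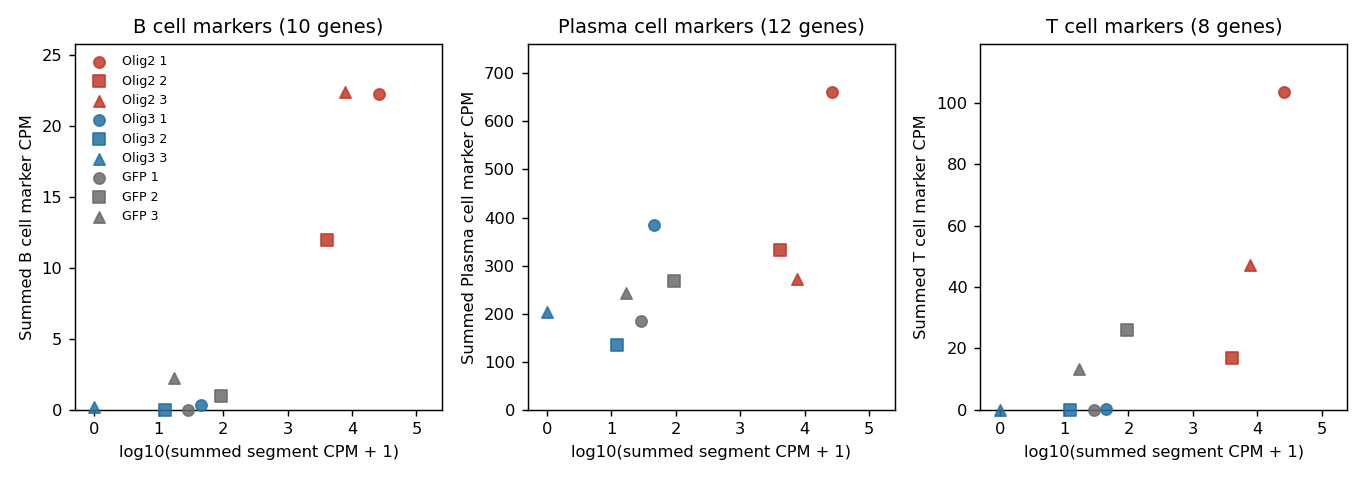
Summed CPM of B cell, plasma cell and T cell markers (linear axes) against log10(summed segment CPM + 1) for each of the 9 libraries. The 3 Olig2 libraries lie to the right and have the highest B cell sums, 11.97 to 22.4 CPM, while the plasma cell sum of Olig3 library 1 and the T cell sum of GFP library 2 lie among those of the Olig2 libraries, with Olig2 library 1 highest at 662 and 104 CPM.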

How the data were processed

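Poly-A RNA of pooled picked cells was amplified with the SMART-Seq HT kit over 20 cycles, per the labels' protocols, and sequenced as 9 libraries. The authors deposited unnormalised read counts for each gene. The submitters' processing notes name FastQC, HISAT2 and HTSeq, with build mm10. No version, strand setting or rule for reads with several matches is named, so counts of similar or overlapping segments may be lost or split. Totals ranged from 5355691 to 6979851 counts.

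Groups were compared by the quasi-likelihood test of edgeR 4.0.16 (R 4.3.3, TMM factors, filterByExpr, 1 model of group means over 9 libraries, 6 residual degrees of freedom, threshold 0.05 on the adjusted p), checked on simulated data. Shares have 95% Wilson intervals and need 10 counts. The floor is 3 counts. Group levels are mean ± SD of scaled CPM, and other CPM are unscaled. Annotation and sequences are from GENCODE M21 (coordinates 1-based). Named genes were all constant members, all members called, and the leading variable segments. Members, lists, tests and alternatives were chosen with earlier results of these data known. DESeq2 1.42.0 was an alternative. The main model did not pair libraries by replicate number. Promoters of the members were not analysed here.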

Additional observations from a re-analysis of the deposited data

Results flagged for a closer look

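Igkc differed between the factors: the test of Olig3 against Olig2 gave an edgeR adjusted p of 0.01325, with Olig2 above GFP and no call for Olig3 against GFP (edgeR adjusted p = 0.577, overlapping libraries). For Igha, every Olig2 library lay above and every Olig3 library below the GFP mean, with a mean in the Olig2 libraries that was 255 CPM above the GFP mean in unscaled CPM, but the edgeR test of Olig3 against Olig2 did not pass (adjusted p = 0.392) and 1 Olig2 library gave most of its counts. Iglv1 was also above the GFP mean in every Olig2 library, by 19.8 CPM on average, and at 0 in every Olig3 library, with an edgeR adjusted p of 0.0976 for Olig3 against Olig2.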

How the results depend on the processing

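Members called with Olig2 against GFP numbered 2, with 2 also for RLE factors and for scaling without the members. The number was 6 by DESeq2, 9 without the filter (32 members tested in place of 9), 3 with the filter at 10 counts, 5 without Olig3 libraries 1 and 3, and 0 to 4 when leaving out each library. All genes called numbered 8, with 116 by DESeq2, 176 without the filter, 13 with the filter at 10 counts and 41 without those Olig3 libraries. For Olig3 against GFP it was 0 (32 of all genes), with 1 by DESeq2 (637 of all genes) and 5 without the filter (556), and 0 when leaving out each library. For Olig3 against Olig2 it was 1 (6 of all genes), with 7 by DESeq2 (105), 10 without the filter (140), 2 with the filter at 10 counts (11), 0 without the same 2 Olig3 libraries, and 1 to 4 when leaving out each library. The cause of these moves was not tested. With the replicate number as a block the counts were 2, 0 and 2. Deviations of same-numbered libraries correlated at -0.0634 to 0.113, and those of differently numbered libraries at -0.115 to 0.0747. The ranges overlapped. With 3 libraries in each group they cannot show whether same-numbered libraries share an animal or batch. Over 426 values of tested members and settings, 377 kept direction and side of the threshold, 11 lost and 36 gained the call, and 2 turned sign, neither past the threshold. Leaving out each library gave log2 changes of -0.18 to 3.16 for Ighm in Olig2 against GFP (negative without Olig2 library 1) and of -6.26 to 3.02 for Ighg2b in Olig3 against GFP (positive without GFP library 2). Members would number 75 at 1 or more counts, 16 at 50 and 14 at 100. The mean share of member counts with Olig2 was 1.37% without mitochondrially encoded genes and Malat1, and 0.589 to 1.69% without each Olig2 library. At these totals a difference under 3 counts was not detectable.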

Other observations

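Segments under the minimum of 10 counts numbered 43, with 25, 21 and 6 counts in Olig2 libraries 1, 2 and 3, against 4, 4 and 2 with Olig3 and 10, 13 and 4 with GFP. Joining and diversity segments, the short pieces between variable and constant genes, had 42, 6 and 7 counts over all named rows in the Olig2 libraries, against 0 in each Olig3 library and 0, 2 and 0 with GFP. In Olig2 library 1 these included Igkj5 with 10 counts, Igkj4 with 9, Ighj3 with 7 and Ighd1-1 with 4.

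Among genes that are not members, 3 had 10 or more counts in both Olig2 libraries 1 and 3 and 0 in the other 7 libraries. The same count was 3 for Olig2 libraries 2 and 3, 0 for Olig2 libraries 1 and 2, and 6 for the pair with the most, GFP libraries 1 and 2.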
